A study of Homo sapiens with 24 samples.

Results

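Mucins, trefoil factors and the transcription factor SPDEF were followed in HCT-116 colorectal cancer cells exposed to butyrate with and without doxycycline, which controls an inducible block of Wnt signalling. The 10 genes were chosen by name. They comprise the gel-forming mucins MUC2, MUC5AC and MUC5B, the transmembrane mucins MUC1, MUC13 and MUC20, the trefoil factors TFF1, TFF2 and TFF3, and SPDEF. The array carries 17 probes for them among 34127 non-control probes. Each probe is a single oligonucleotide of 60 bases, and the signal of a probe was read as log2 of the processed signal relative to the 75th percentile of its array, so that a level below 0 lies under that percentile.

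Goblet cells of the intestine secrete MUC2, whose disulfide-linked polymers form the mucus gel of the colon. MUC5AC and MUC5B are the gel-forming mucins of the stomach surface and the airways, while transmembrane mucins such as MUC1 remain attached to the apical membrane. Trefoil factors are small secreted peptides held together by disulfide bonds. TFF3 accompanies MUC2 in intestinal goblet cells, and TFF1 and TFF2 accompany the gastric mucins. SPDEF is an ETS transcription factor known for driving the maturation of goblet cells. Butyrate, a short-chain fatty acid made by bacteria that ferment fibre, inhibits histone deacetylases.

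All cells came from 1 HCT-116 clone that carries the Tet repressor and a doxycycline-inducible, FLAG-tagged dominant negative Tcf4 (DN-Tcf4). This form lacks the part of Tcf4 that binds beta-catenin, so it can block transcription by beta-catenin and Tcf. The controls (Ctl) received neither agent, and the other treatments were 5 mM sodium butyrate (NaB), doxycycline at 4 ug/ml (Doxy), or both (DoxyNaB). By the study's methods doxycycline was given first, and the cotreatment with or without butyrate then lasted 17.5 hr. Each treatment was repeated in 6 numbered experiments, which gave 24 single-colour Agilent arrays, 6 per treatment. Since every culture derives from 1 clone, the errors cover that clone only, and the number of arrays limits the precision. For each probe they come from 1 estimate of the spread left over all 24 arrays after treatment and experiment were fitted. A tested member therefore has the same SE in each pairwise comparison, whatever the spread of its differences between experiments.

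Arrays of experiments 2 to 4, which share a scan date but lie on a separate slide per experiment, stood apart from the others. Between 78.4% and 88.1% of their spots were well above background, against 52.7% to 62.6% in experiments 1, 5 and 6. Their negative control spots read 63.1 to 249 signal units, against 48.4 to 64.3, with the highest values in DoxyNaB of experiment 2 and NaB of experiment 3 (161). Experiment 1 was split over 2 slides with different scan dates, 1 with butyrate and 1 without. In that experiment butyrate cannot be told apart from the slide or the scan date. All 5 of the epithelial identity genes (CDH1, EPCAM, KRT8, KRT18 and KRT19) cleared background on every array. Induction was checked on TCF7L2, the gene of Tcf4, and on AXIN2, a Wnt target. TCF7L2 rose by 2.96 on the log2 scale in DoxyNaB against NaB (SE 0.36, limma adjusted p = 3.68e-05) while its change in Doxy against Ctl was -0.17 (adjusted p = 0.921). Another TCF7L2 probe (A_23_P127013) rose by 4.46 in DoxyNaB against NaB, while A_33_P3377304 fell by 1.25. The representative TCF7L2 probe also rose by 4.04 in DoxyNaB against Doxy, so these treatments differ in TCF7L2 as well as in butyrate. AXIN2 fell by 2.53 in DoxyNaB against NaB (SE 0.09), and its change in Doxy against Ctl was -0.58 (adjusted p = 0.0029).

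The probes shown here are the 4 that could be tested and, for the trefoil factors, 2 that could not, because a value belongs to the stretch of transcript that its probe reads. Capitals mark the longest run of bases that a probe shares with the probe of another member, over 16 of the 17 probes.
MUC2 (chr11:1082337-1082396, + strand): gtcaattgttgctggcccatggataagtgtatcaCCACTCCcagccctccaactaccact
MUC1 (chr1:153425276-153426350, - strand): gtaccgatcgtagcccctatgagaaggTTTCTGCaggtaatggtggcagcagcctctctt
TFF1 (chr21:42656509-42656568, - strand): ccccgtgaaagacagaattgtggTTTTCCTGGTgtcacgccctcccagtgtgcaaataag
TFF2 (chr21:42639717-42640715, - strand): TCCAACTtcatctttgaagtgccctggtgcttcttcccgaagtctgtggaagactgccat
TFF3 (chr21:42606664-42606723, - strand): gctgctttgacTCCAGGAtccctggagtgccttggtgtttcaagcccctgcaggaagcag
SPDEF (chr6:34614085-34614144, - strand): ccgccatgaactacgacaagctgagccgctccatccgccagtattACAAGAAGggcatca

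Positions are those of the array files, on build NCBI36. The MUC1 and TFF2 probes span more than their 60 bases of genome, that is, they cross a gap in the alignment. Over all pairs of those 16 probes that belong to different members, the longest shared run was 10 bases. MUC2, MUC5AC and MUC5B lie next to each other on chromosome 11 between MUC6 and TOLLIP, and TFF3, TFF2 and TFF1 form a cluster on chromosome 21 between ABCG1 and TMPRSS3. The annotation used here names the genes but holds no exons of this build, so exon positions were not assigned.

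Most of the family lay near the detection limit in these cells. Only probes that the scanner software had marked as well above background on every array of 1 treatment or more entered the tests. This held for 18983 of all probes (55.6%) but for only 4 of the 17 member probes, 1 each for MUC2, MUC1, TFF1 and SPDEF. The MUC2 and SPDEF probes cleared it on each of the 24 arrays, a status reached by 44.2% of all probes. The MUC1 probe did so on 6 of 6 Ctl and 6 of 6 Doxy arrays, on 4 of 6 NaB arrays and on 5 of 6 DoxyNaB arrays. The TFF1 probe was well above background on 6 NaB arrays and on 5 arrays of every other treatment. MUC1 thus entered the tests through the treatments without butyrate and TFF1 through NaB alone, so the values of both between these treatments are descriptions.

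The other 13 probes, among them all those of MUC5AC, MUC5B, MUC13, MUC20, TFF2 and TFF3, were not tested. Detection of the members followed the scan date. On each of the 12 arrays of experiments 2 to 4, 8 of the 17 probes cleared background in this way (65.5% of all probes did), whereas 10 did so on 0 of the 12 arrays of experiments 1, 5 and 6 (28.9% of all probes had 0 there). One TFF3 probe (A_23_P393099) was well above background on 0 of the 24 arrays, as were 4.56% of all probes.

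**Figure D1:**
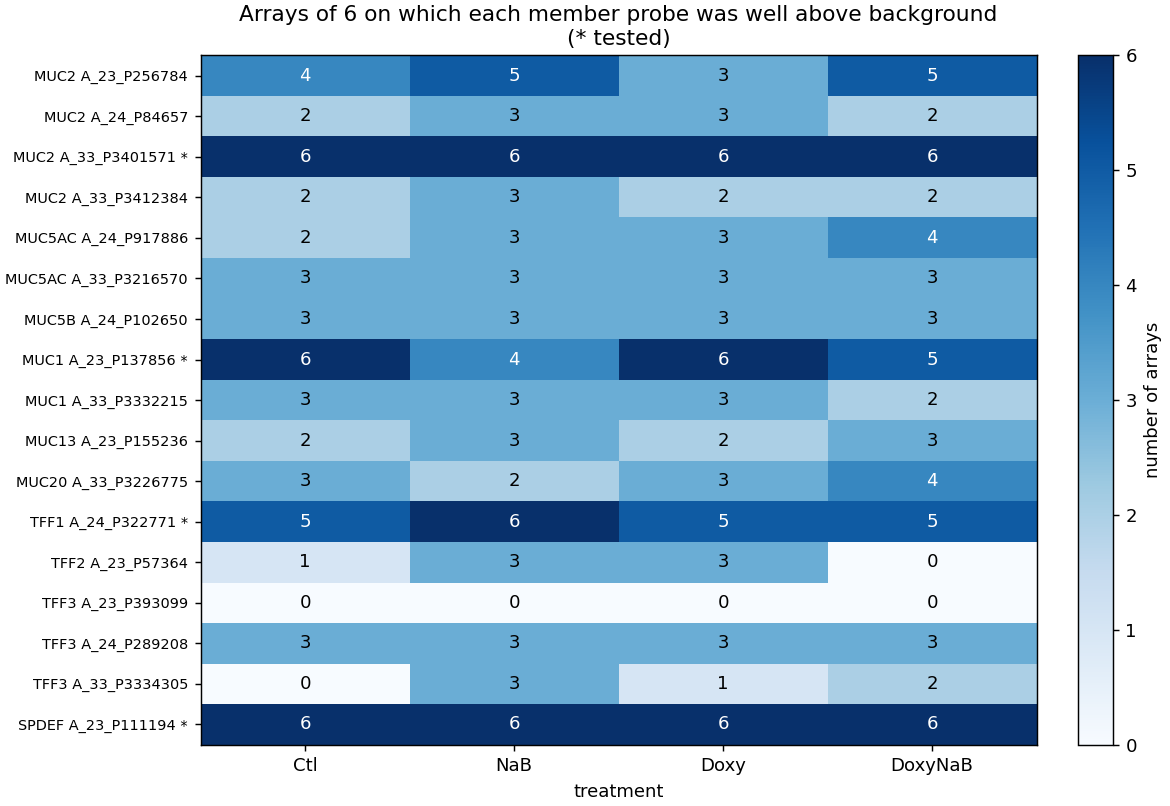
Number of arrays, of 6 per treatment, on which each of the 17 member probes was well above background. Rows are probes with their gene, columns are treatments, darker cells mark more arrays, and an asterisk marks the 4 tested probes. The MUC2 and SPDEF tested probes reach 6 in every column, while the TFF3 probe A_23_P393099 stays at 0.

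MUC2 was the tested member whose change with butyrate passed an adjusted p of 0.01 both without and with doxycycline. In Ctl its tested probe ranged from a log2 level of -3.65 over a median of -3.47 to -2.83. In NaB it ranged from -3.14 over -2.32 to -1.85. The ranges of both treatments overlapped, but within each of the 6 experiments the NaB array was the higher. The smallest difference was 0.42 in experiment 5 and the largest 1.80 in experiment 3. Across experiments MUC2 rose by 0.91 on the log2 scale in NaB against Ctl (SE 0.23, 95% interval 0.44 to 1.39), a 1.88-fold change with a limma adjusted p of 0.0014.

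With doxycycline, the same MUC2 probe ranged from -3.97 over -3.70 to -3.03 in Doxy and from -3.88 over -2.96 to -1.30 in DoxyNaB. DoxyNaB was again the higher in 6 of 6 experiments, with the array of experiment 2 far above the rest at a difference of 2.36 and that of experiment 5 at only 0.10. MUC2 rose by 0.87 in DoxyNaB against Doxy (SE 0.23, interval 0.40 to 1.35, limma adjusted p = 0.00199). That SE is shared by all comparisons, whereas the differences had an SD of 0.78 here and of 0.50 in NaB against Ctl. The methods' paired t-test, which uses these differences alone, gave an adjusted p of 0.0597 here. Without experiment 3 the change in NaB against Ctl was 0.73 (adjusted p = 0.0126). Both changes stayed under the 2-fold limit that a call required in addition to an adjusted p under 0.01.

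The MUC2 rise depended on how the arrays were brought to a common scale. In NaB against Ctl the change was 0.27 after normexp background correction (adjusted p = 0.426), -0.05 after quantile normalization (adjusted p = 0.779) and 0.16 after scaling to the median (adjusted p = 0.399). In DoxyNaB against Doxy the corresponding changes were 0.74, 0.27 and 0.32, none with an adjusted p under 0.01. These settings also moved the median change of all tested genes in NaB against Ctl, from 0.17 with the 75th percentile to 0.08, -0.06 and -0.58. Relative to that median MUC2 was higher by 0.75 with the 75th percentile and with median scaling, but by 0.19 after normexp and by 0.01 after quantile normalization.

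The other 3 MUC2 probes were not tested, and their values are descriptive. Probe A_23_P256784, which reads the stretch nearest the 3' end, was well above background on 17 arrays and was higher in NaB than in Ctl in 6 of 6 experiments, by 0.33 to 2.32. It was also higher in DoxyNaB than in Doxy in 6 of 6 experiments, by 0.09 to 2.45. The remaining 2 probes were well above background on 0 of the 12 arrays of experiments 1, 5 and 6.

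The upstream sequence of MUC2 is printed because MUC2 alone of the members passed the adjusted p threshold and promoter sequence was at hand for it. Promoter entries of RefSeq (GRCh38.p14) matched 4 of the 10 members. The 250 bases before the MUC2 start (chr11:1074624-1074873, + strand) are shown with CACCC, a motif bound by Sp and KLF factors, and the TATA-like TATAA in capitals, each searched on both strands.
MUC2 upstream: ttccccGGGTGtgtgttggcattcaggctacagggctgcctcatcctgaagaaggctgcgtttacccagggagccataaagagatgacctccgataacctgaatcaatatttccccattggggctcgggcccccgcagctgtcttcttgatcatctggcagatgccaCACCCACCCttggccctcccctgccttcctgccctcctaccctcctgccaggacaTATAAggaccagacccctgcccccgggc

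The window held 3 CACCC matches, of which a pair overlaps by 1 base, and 1 TATAA match that begins 28 bases before the start. Of all 34788 distinct windows of this length, 54.7% held CACCC and 19% held TATAA on either strand. The Tcf-type motifs CTTTGAT and CTTTGTT, present in 2.27% and 4.51% of windows, had no match in the windows of MUC2, MUC1, MUC13 and SPDEF. GGGCGG, in 42.6% of windows, had 4 matches in MUC1 and none in the other 3. These matches are descriptions of letters in the window.

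MUC1, a transmembrane mucin, showed no common direction. Its tested probe ranged from -3.49 over -2.97 to -2.44 in Ctl and from -4.75 over -3.13 to -1.26 in NaB, so the NaB arrays enclosed the range of Ctl. NaB was lower than Ctl by 1.72, 1.16 and 1.39 in experiments 1, 5 and 6, and higher by 0.37, 1.91 and 0.97 in experiments 2, 3 and 4. Over all experiments the change was -0.17 (SE 0.50, interval -1.22 to 0.87, adjusted p = 0.764).

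In NaB against Ctl the split of MUC1 followed the scan date. In a fit of experiments 1, 5 and 6 alone, a setting added after the values had been seen, the MUC1 change was -1.42 in NaB against Ctl (adjusted p = 0.00208), but only 1 of the 3 NaB arrays there was well above background, so this is not taken as a call. In experiments 2 to 4 alone the change was 1.08 (adjusted p = 0.147). DoxyNaB against Doxy did not divide in this way, with differences of -1.72, -1.35 and -0.05 in experiments 1, 5 and 6 and of 2.39, -0.45 and 0.88 in experiments 2, 3 and 4. The DoxyNaB array of experiment 2, which gave the 2.39, was also the array with the highest negative control signal. The difference between the sets of experiments was not tested. In experiments 2 to 4 the median of all untested probes rose by 1.82 in NaB against Ctl, and in experiments 1, 5 and 6 by 0.17. Its part in the MUC1 values was not tested.

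TFF1, the gastric-type trefoil factor, ranged from -5.22 over -4.47 to -3.43 in Ctl and from -4.50 over -3.25 to -2.48 in NaB. The ranges overlapped, and NaB was the higher in 6 of 6 experiments, by 0.09 in experiment 6 to 1.90 in experiment 3. The change of 1.04 (SE 0.39, interval 0.22 to 1.86) had an adjusted p of 0.0216, over the threshold of 0.01, in a probe that was tested only because it cleared background on all NaB arrays. In DoxyNaB against Doxy the change was 0.63 (SE 0.39, adjusted p = 0.154), with DoxyNaB higher in 5 of 6 experiments.

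A single Doxy array weighed on the TFF1 values. The Doxy array of experiment 6 had a TFF1 level of -2.43, whereas the other 5 Doxy arrays lay between -5.53 and -4.05. Without that array, a setting chosen after its value was seen, TFF1 changed by 1.04 in NaB against Ctl (adjusted p = 0.000402) and by 1.12 in DoxyNaB against Doxy (adjusted p = 0.000397). Without all of experiment 6 the changes were 1.24 and 1.11. These values are not taken as calls. After quantile normalization they were -0.18 and -0.09.

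SPDEF ranged from -3.89 over -2.92 to -2.13 in Ctl and from -3.30 over -2.27 to -0.97 in NaB. NaB was the higher in 6 of 6 experiments, by 0.04 to 1.74, although the ranges overlapped widely. The change of 0.71 (SE 0.27, interval 0.13 to 1.28) had an adjusted p of 0.0262. Leaving out experiment 2 gave 0.73 (adjusted p = 0.00606) and leaving out experiment 3 gave 0.50 (adjusted p = 0.122). The SPDEF change was 0.24 after normexp background correction (adjusted p = 0.531), 0.16 after quantile normalization (adjusted p = 0.56) and -0.04 after scaling to the median (adjusted p = 0.828). In DoxyNaB against Doxy the change was 0.36 (SE 0.27, adjusted p = 0.245), with 3 experiments higher and 3 lower. In experiments 1, 5 and 6 alone the SPDEF changes were 0.27 and -0.21, and in experiments 2 to 4 alone 1.14 and 0.93.

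**Figure D2:**
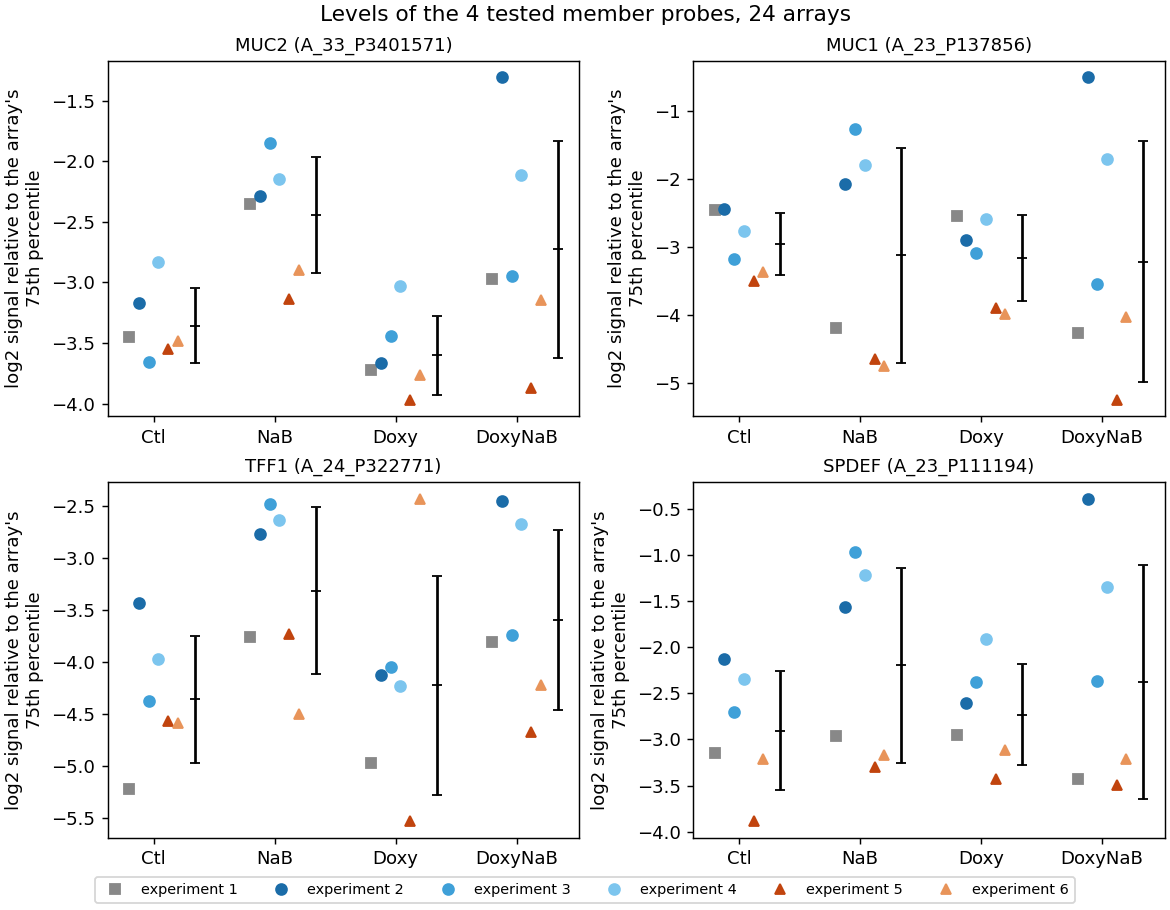
Levels of the tested probes of MUC2, MUC1, TFF1 and SPDEF on the 24 arrays. The vertical axis is log2 signal relative to the array's 75th percentile, points are arrays coloured by experiment (squares experiment 1, circles experiments 2 to 4, triangles experiments 5 and 6), and black bars are the mean with SD (n = 6). NaB arrays of MUC1 fall apart into experiments 2 to 4 above -2.1 and experiments 1, 5 and 6 below -4.1, and 1 Doxy array of TFF1 stands at -2.43.

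**Figure D3:**
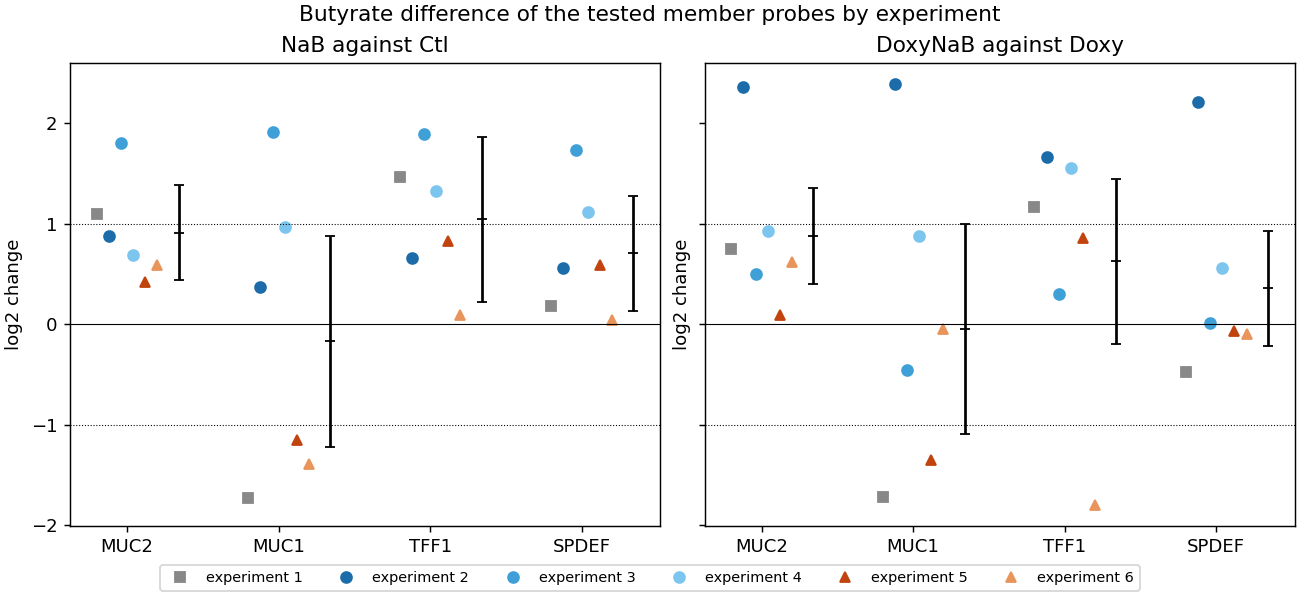
Difference between arrays with and without butyrate in each experiment for the 4 tested member probes, without doxycycline (left) and with doxycycline (right). The vertical axis is log2 change, points are the 6 experiments, black bars are the fitted change with its 95% interval, and dotted lines mark a 2-fold change. MUC2 lies above 0 in all 6 experiments on both sides, and MUC1 lies on both sides of 0.

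The calls of the members are set beside those of all genes. Under the full criteria, 0 of the 4 tested members were called in NaB against Ctl and 0 of 4 in DoxyNaB against Doxy by limma, against 32.4% and 31.1% of the 15192 tested genes. With the fold limit dropped and an adjusted p under 0.01 kept, MUC2 alone passed in either comparison (1 of 4), where 69.6% and 68.4% of all genes passed. At an unadjusted p under 0.05 the members that passed were 3 in NaB against Ctl (MUC2, TFF1 and SPDEF) and 1 in DoxyNaB against Doxy (MUC2). Among all genes 78.8% and 77.3% passed. MUC1 and TFF1 entered the tests through some treatments only. Counts that include them, here and in the comparisons that follow, are therefore descriptions and cannot be weighed against the shares of all genes. The median absolute change over all genes was 0.68 in NaB against Ctl, close to the SPDEF change of 0.71.

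Doxycycline alone, under which the TCF7L2 change was -0.17, gave no called change in any tested member. The intervals use the SE shared by all comparisons, while the MUC1 differences between experiments had an SD of only 0.32 here. In Doxy against Ctl the changes of MUC2, MUC1, TFF1 and SPDEF were -0.24, -0.21, 0.14 and 0.17, with 95% intervals from -0.72 to 0.23, -1.26 to 0.83, -0.68 to 0.96 and -0.40 to 0.75. By limma 0 of 4 were called, and 0 passed at an unadjusted p under 0.05, where 0.0922% of all genes were called, 0.553% had an adjusted p under 0.01 and 13.3% an unadjusted p under 0.05.

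DoxyNaB against NaB is the comparison in which TCF7L2 rose. There the changes of MUC2, MUC1, TFF1 and SPDEF were -0.28, -0.09, -0.28 and -0.18, with intervals from -0.76 to 0.19, -1.14 to 0.95, -1.10 to 0.54 and -0.75 to 0.40. By limma 0 of 4 were called and 0 passed at an unadjusted p under 0.05, against 0.402% of all genes called, 2.72% with an adjusted p under 0.01 and 16.1% with an unadjusted p under 0.05. The intervals of MUC1 and TFF1 reach past a 2-fold change in at least 1 direction, so a change of that size is not excluded for them.

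The interaction, that is, the change in NaB against Ctl minus that in DoxyNaB against Doxy, was 0.04 for MUC2 (SE 0.32, interval -0.64 to 0.71), -0.12 for MUC1, 0.42 for TFF1 and 0.35 for SPDEF. The smallest adjusted p among them was 0.798. By limma 0 of 4 passed an adjusted p under 0.01 and 0 an unadjusted p under 0.05, against 1.36% and 12.5% of all genes. The intervals of MUC1 and TFF1 were wide, from -1.60 to 1.36 and from -0.74 to 1.58.

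Across the 24 arrays, after centring on the experiment, the tested members varied together to different degrees. Pearson's r was 0.81 between MUC2 and SPDEF, 0.68 between MUC1 and SPDEF, 0.67 between MUC2 and TFF1, 0.61 between TFF1 and SPDEF, 0.39 between MUC2 and MUC1 and 0.22 between MUC1 and TFF1. The genes outside the group with the most similar pattern were TFE3 for MUC2 (r = 0.954), CHST14 for MUC1 (r = 0.961), SYNRG for TFF1 (r = 0.907) and LOC100131960 for SPDEF (r = 0.966). These correlations describe 24 arrays that share the same treatments, slides and background.

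Among the gel-forming mucins that could not be tested, MUC5B was read by 1 probe. This probe (A_24_P102650, chr11:1237636-1237815) cleared background on each of the 12 arrays of experiments 2 to 4 and on 0 of the 12 others. In Ctl it ranged from -7.35 over -5.83 to -4.06, and in NaB, where the spot of experiment 3 was excluded as an outlier by the scanner software, from -6.06 over -4.90 to -2.77. NaB was higher than Ctl in 5 of 5 experiments, by 0.64 to 2.45, and DoxyNaB was higher than Doxy in 6 of 6, by 0.67 to 2.90. The median untested probe was likewise higher with butyrate in 6 of 6 experiments of both comparisons. In experiments 2 and 4 the MUC5B differences of 1.99 and 2.07 in NaB against Ctl stood beside 1.22 and 1.79 for that median.

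In experiments 1, 5 and 6 the MUC5B differences averaged 1.44 in NaB against Ctl and 1.76 in DoxyNaB against Doxy, where the median untested probe moved by 0.17 and 0.25. None of those arrays had MUC5B well above background, so these values rest on signals that the scanner software had not accepted.

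The MUC5AC probes were less uniform. Probe A_24_P917886 ranged from -7.41 to -4.95 in Ctl and from -6.73 to -3.48 in NaB, with NaB higher in 5 of 6 experiments. DoxyNaB was higher than Doxy in 6 of 6, by 0.75 to 2.18. The second MUC5AC probe, A_33_P3216570, was higher in NaB in 4 of 6 experiments and lower in experiments 5 and 6 by 0.96 and 1.05. With doxycycline it was higher in DoxyNaB than in Doxy in 6 of 6, by 0.125 to 2.39.

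MUC13 and MUC20, both transmembrane mucins with 1 probe each, were well above background on 10 and 12 arrays. The MUC13 probe ranged from -7.25 over -6.25 to -5.14 in Ctl and from -7.26 over -4.67 to -2.33 in NaB. Its differences of 1.61, 4.36 and 2.47 in experiments 2, 3 and 4 contrast with -0.26, 0.85 and -0.01 in experiments 1, 5 and 6. The MUC20 probe ranged from -5.92 to -3.60 in Ctl and from -6.18 to -3.32 in NaB, with 3 experiments higher and 3 lower, while DoxyNaB was higher than Doxy in 6 of 6 experiments by 0.48 to 2.02. The second MUC1 probe was well above background on 11 arrays, all in experiments 2 to 4.

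The trefoil factors of TFF2 and TFF3 stayed dim. The TFF2 probe was well above background on 1 Ctl array, 3 NaB arrays, 3 Doxy arrays and 0 DoxyNaB arrays, and NaB was higher than Ctl in 6 of 6 experiments, by 0.20 to 3.15. The TFF3 probe A_33_P3334305 was not well above background on any Ctl array but was so on 3 NaB arrays, 1 Doxy array and 2 DoxyNaB arrays. The remaining TFF3 probe, A_24_P289208, reached that status on each of the 12 arrays of experiments 2 to 4 and differed between NaB and Ctl by 1.30, 3.49 and 2.89 there, but by 0.21, 0.09 and 0.03 in experiments 1, 5 and 6.

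The dim member probes were set beside dim probes at large, and not all of them moved alike. The median of the 15144 untested probes was higher in NaB than in Ctl by 1.22, 2.44 and 1.79 in experiments 2, 3 and 4, and by 0.15, 0.11 and 0.19 in experiments 1, 5 and 6. In DoxyNaB against Doxy it was higher by 2.66 in experiment 2, 1.12 in experiment 4 and 0.13 to 0.44 in the others. The MUC20 differences in NaB against Ctl were -0.12, 1.10 and -0.29 in experiments 2, 3 and 4, under that median. The MUC5B differences lay above it in both comparisons, in every experiment where they could be taken. The median tested probe moved by at most 0.26 in either comparison. In experiments 2 to 4, negative control spots read 112 to 161 in NaB and 63.1 to 76.9 in Ctl. Their part in the values of the dim members was not tested.

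**Figure D4:**
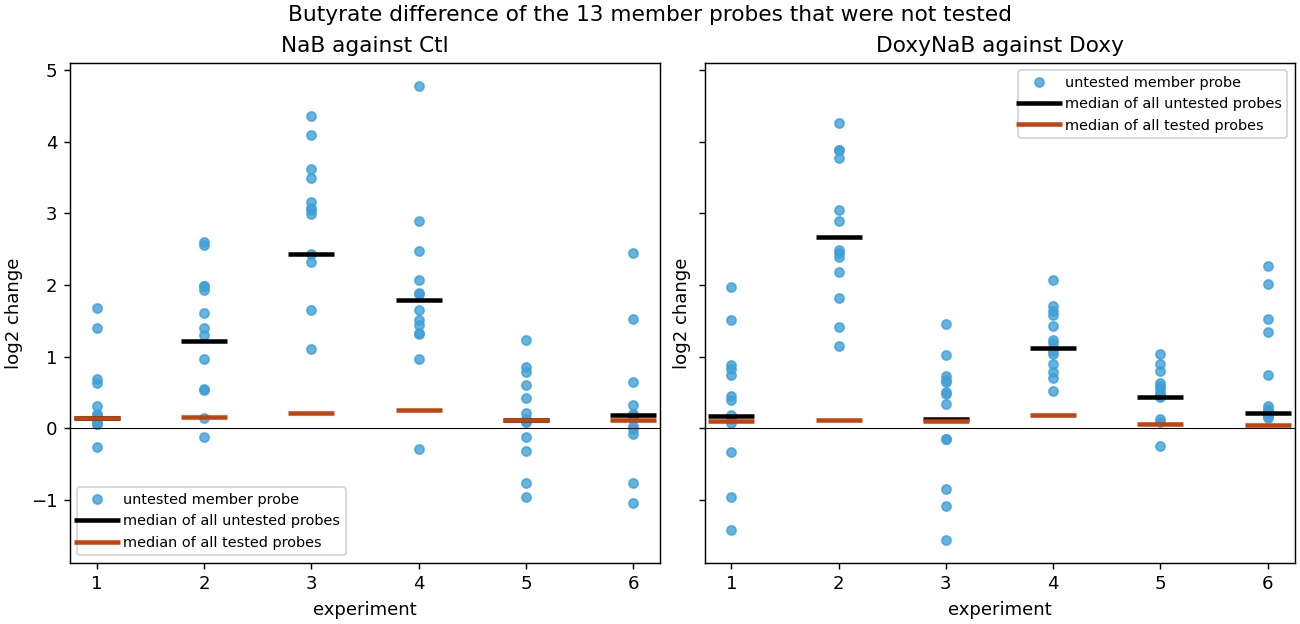
Difference between arrays with and without butyrate in each experiment for the 13 member probes that were not tested (points), without doxycycline (left) and with doxycycline (right). The vertical axis is log2 change, black dashes are the median of all 15144 untested probes and orange dashes that of all 18983 tested probes. The points scatter around the black dashes, which reach 2.44 in experiment 3 on the left and 2.66 in experiment 2 on the right.

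Genes that act beside the members were taken from lists, with 1 probe per gene. Of 16 other mucins 4 were tested (CD164, MUC4, MUC6 and PODXL). By limma 0 were called in NaB against Ctl or in DoxyNaB against Doxy, where 32.4% and 31.1% of all genes were called. The median change of these 4 in NaB against Ctl was 0.02, beside 0.17 over all genes. The 4 tested probes of MUC4, a transmembrane mucin beside MUC20, disagreed in NaB against Ctl, with changes from -0.02 for the brightest to 0.83. The MUC4 probe A_24_P239176 rose by 1.10 in DoxyNaB against Doxy (adjusted p = 7.89e-06) and would have been called, while the brightest changed by -0.14. MUC6, the gastric gland mucin beside MUC2, had a change of 0.85 (adjusted p = 0.00965) without reaching the fold limit.

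Of 20 transcription factors listed for goblet cells 16 were tested. The list is broad, since it also holds NEUROG3, an enteroendocrine marker here, and HES1. Its counts are therefore not those of the goblet lineage alone. In NaB against Ctl 2 were called higher and 2 lower (4 of 16, beside 32.4% of all genes), with a median change of 0.30. The counts in DoxyNaB against Doxy were 0 higher and 3 lower, beside 31.1% of all genes called, with a median of -0.04. FOXA2, among these 3 with a change of -1.29, was well above background on 6 Doxy and 3 DoxyNaB arrays. It entered the tests through the treatments without butyrate alone, and it was named after its value was seen. Its call is therefore a description, and a count that includes it cannot be weighed against that share. HES1, a Notch target that represses secretory fate and was well above background on 4 Ctl and 6 NaB arrays, rose by 1.34 (adjusted p = 0.00039) and had a change of 0.50 in DoxyNaB against Doxy (adjusted p = 0.123). GFI1, a factor of the secretory lineage named after its value was seen, rose by 1.01 (adjusted p = 4.03e-08). CREB3L4 (by its brightest probe) and XBP1, both factors of the secretory pathway, fell by 1.16 and 1.11, each in 6 of 6 experiments. Another tested CREB3L4 probe (A_33_P3345708), well above background on 24 arrays, changed by -0.30 (limma adjusted p = 0.44), with 3 experiments higher and 3 lower. Of these 16 factors 5 passed the interaction test, beside 1.36% of all genes. The interaction was 1.01, 1.01, 0.80, 0.53 and -0.72 for ELF1, SOX9, KLF4, XBP1 and ELF3. In NaB against Ctl these genes changed by 0.13, 0.29, 0.53, -1.11 and 0.21, in that order. In DoxyNaB against Doxy they changed by -0.88, -0.73, -0.28, -1.64 and 0.93, so XBP1 fell in both. Another ELF1 probe (A_33_P3278068) had an interaction of 1.10 (limma adjusted p = 0.187). The 5 genes were named after their values were seen. The study lists SOX9 among genes targeted by Wnt and Tcf, and the list used here was chosen with earlier results of these data known. The count of 5 is therefore a description of this list.

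Of 22 secreted or granule proteins of goblet cells 10 were tested, and 4 were called higher and 1 lower in NaB against Ctl (5 of 10, beside 32.4% of all genes). The 4 called higher (BCAS1, BEST2, DMBT1 and ITLN2) entered the tests through butyrate arrays alone. Their count is therefore a description and cannot be weighed against that share. The median change was 0.75 over genes that include these 4. The same counts were found in DoxyNaB against Doxy, beside 31.1% of all genes called, with a median of 0.79. DMBT1, a mucin-like scavenger protein of mucosal surfaces, was well above background on 0 Ctl and 6 NaB arrays. It was 19.6-fold higher in NaB when its Ctl levels were raised to a floor. For that value its level on each Ctl array was the lowest signal accepted there, or its own level where that was higher. That signal is not a strict limit, since in Ctl of experiment 2 it was -5.71, under the median untested probe at -5.03. Another DMBT1 probe (A_33_P3300312), not tested, was well above background on 9 arrays and was higher in NaB in 4 experiments and lower in 2. ITLN2, an intelectin, was well above background on 3 Ctl and 6 NaB arrays and had a change of 2.37 (SE 0.47). BEST2, an anion channel of goblet cells, was so on 2 Ctl and 6 NaB arrays and had a change of 1.93 (SE 0.23). The others called were BCAS1, with 4.12 and 3 Ctl arrays well above background, and ERN2, a stress sensor of secretory epithelium, which fell by 1.33 (adjusted p = 1.04e-08) and was well above background on all 24 arrays. BCAS1 and ERN2 were named after their values were seen.

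Of 30 enzymes of mucin O-glycosylation 19 were tested, with 3 called higher and 3 lower in NaB against Ctl and a median change of 0.14, so the share called (6 of 19) was near the 32.4% of all genes. GALNT7 and GALNT14, which belong to the family that starts O-glycans, changed by -1.96 and -1.69, and GAL3ST1, a sulfotransferase, rose by 1.64. In DoxyNaB against Doxy 3 were higher and 4 lower, beside 31.1% of all genes called.

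Markers of single intestinal lineages were mostly dim as well. Of 8 goblet markers 3 were tested (MUC2, SPDEF and FCGBP) with 0 called in either butyrate comparison, beside 32.4% and 31.1% of all genes. Their median changes were 0.91 in NaB against Ctl and 0.85 in DoxyNaB against Doxy, beside 0.17 and 0.11 over all genes. FCGBP, named after its value was seen, rose by 0.96 (limma adjusted p = 3.02e-09) and 0.85 (limma adjusted p = 1.77e-08), under the fold limit. It was well above background on 24 arrays. For the stem markers 0 of 4 were tested. Of 6 enteroendocrine markers 2 were tested. CHGA, well above background on 0 Ctl and 6 NaB arrays, was 8.38-fold higher in NaB with the floor used for DMBT1. PLA2G2A, the tested 1 of 4 Paneth markers, was well above background on 3 Ctl and 6 NaB arrays and had a change of 2.27. CHGA and PLA2G2A entered the tests through butyrate arrays alone, so their values are descriptions. Of 11 markers of fibroblasts, leukocytes and endothelium 5 were tested (COL1A1, CD14, CD68, CDH5 and VWF). COL1A1, CD14 and VWF were called higher with butyrate, beside 32.4% of all genes called in NaB against Ctl and 31.1% in DoxyNaB against Doxy. VWF was well above background on 3 Ctl and 6 NaB arrays and entered the tests through butyrate arrays alone, so its values are descriptions. The summed relative signal of the 5 tested markers was 0.54 to 0.80 in Ctl, 0.76 to 1.66 in NaB, 0.47 to 0.89 in Doxy and 1.32 to 2.13 in DoxyNaB. The bearing of these markers on the member values was not tested.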

How the data were processed

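HCT-116 cells were profiled on Agilent single-colour arrays, 24 in all. The deposited files hold scanner intensity values, extracted per the file headers with Agilent Feature Extraction 9.5.3.1, which subtracted background, detrended each array and scaled nothing between arrays. The deposited flags of the same files (a score of 0 or 1 per spot) mark spots well above background, saturated spots and outliers. Positions are on NCBI36 per the file headers.

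Outlier spots were left out, log2 processed signal was taken relative to the 75th percentile of non-control spots, and spots of a probe were averaged. A probe counted as well above background where at least 50% of its spots did. limma 3.58.1 (R 4.3.3) was fitted to all 18983 tested probes with treatment and experiment as terms and Benjamini-Hochberg adjustment over all of them. A call required a fold over 2 and an adjusted p under 0.01, and the interaction the adjusted p alone. Experiment numbers were taken as pairs because the study's methods name a paired test and because, except in experiment 1, the arrays of an experiment share a slide. The deviations from treatment means were also correlated for every pair of arrays with the same number. Here r was over 0.1 except for NaB with DoxyNaB in experiment 3 (r = -0.217). Arrays with different numbers were not compared, and arrays of the same number mostly share a slide, so these values cannot decide the pairing. The tested probe with the highest mean level stood for its gene. Counts over all genes use that probe. The fit was tested on simulated data.

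The named genes are the members, TCF7L2, AXIN2, the gene most correlated with each tested member (probes without a gene name left out) and, per list, up to 3 called in NaB against Ctl and moved alike in 6 experiments. The members and lists were chosen with earlier results of these data known. Alternatives covered the background correction, scaling, filter, block, test, thresholds, choice of probe and the arrays used. Plots and sequences were handled with Python 3.11.15, pandas 2.3.3 and matplotlib 3.10.9. The sequence of 1 probe is not reported here.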

Additional observations from a re-analysis of the deposited data

Results flagged for a closer look

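Values were grouped by 4 treatments for each of the 17 member probes and by 5 comparisons for each of the 4 tested probes. A group held 6 values, or 5 for MUC5B in NaB. In each group the lowest or highest value was set against its neighbour by Dixon's ratio. Of 88 groups examined, 3 held a value that stood apart, where chance gives about 1 in 20. The MUC2 probe A_23_P256784 had a level of -6.02 in Ctl of experiment 1, the lowest by a gap of 0.70 of the range. The TFF2 probe had a level of -6.74 in Doxy of experiment 1, with a gap of 0.64. The tested MUC2 probe changed by 2.36 in DoxyNaB against Doxy of experiment 2, with a gap of 0.64. Without experiment 2 that MUC2 change was 0.58 (limma adjusted p = 0.00641).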

How the results depend on the processing

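Counts of called members are given first. In NaB against Ctl, where 0 of 4 were called, the count was 2 of 10 without a filter (MUC5B and TFF2), 1 with the arrays of the groups compared alone (TFF1), 1 at an adjusted p under 0.05 (TFF1), 1 with a fold over 1.5 (MUC2), and, in settings chosen after seeing the data, 1 in experiments 1, 5 and 6 (MUC1) and 1 without the Doxy array of experiment 6 (TFF1). In DoxyNaB against Doxy it was 3 of 10 without a filter (MUC5AC, MUC5B and MUC20), 1 with a fold over 1.5 (MUC2) and 1 without the Doxy array of experiment 6 (TFF1). Leaving out each experiment in turn gave 0 to 1 in both, with MUC2 called without experiment 5 and TFF1 without experiment 6. Without the replicate block, that is, unpaired, the MUC2 adjusted p was 0.0129 in NaB against Ctl and 0.0168 in DoxyNaB against Doxy, both past 0.01, and no member was called. The methods' t-test with the same fold rule called 0 members at an unadjusted p under 0.01 and 0 after Benjamini-Hochberg in each comparison; in NaB against Ctl it gave MUC2 an unadjusted p of 0.00642 (0.0109 adjusted), and in DoxyNaB against Doxy 0.0406 (0.0597 adjusted). Since MUC1 and TFF1 passed the filter through some treatments only, their calls here are counts and not support for a change. The fold settings do not apply to the interaction, which also needs the arrays of every treatment.

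Changes of single members that turned their sign follow, with the cause not tested. With normexp, MUC1 was 0.51 in DoxyNaB against Doxy; SPDEF and TFF1 were -0.057 and -0.066 in Doxy against Ctl; MUC2, MUC1, TFF1 and SPDEF were 0.21, 0.36, 0.26 and 0.21 in DoxyNaB against NaB; and the interactions of MUC2, TFF1 and SPDEF were -0.47, -0.32 and -0.26. With quantile normalization, MUC2 and TFF1 were -0.052 and -0.18 in NaB against Ctl, TFF1 was -0.085 in DoxyNaB against Doxy and -0.17 in Doxy against Ctl, MUC1 was 0.17 in DoxyNaB against NaB, and the interactions of MUC2 and TFF1 were -0.33 and -0.093. With median scaling, SPDEF was -0.045 and -0.20 in the butyrate comparisons, MUC1 was 0.011 in DoxyNaB against NaB, and the MUC2 interaction was -0.15. With the slide as block, MUC1 was 0.15 and 0.27 in the butyrate comparisons. In experiments 2 to 4, MUC1 was 1.08 and 0.94 there, TFF1 was -0.21 in Doxy against Ctl, and the interactions of MUC2 and MUC1 were -0.14 and 0.14. In experiments 5 and 6, DoxyNaB against Doxy gave -0.082 for SPDEF and -0.47 for TFF1, and MUC1 was 0.067 in DoxyNaB against NaB. In experiments 1, 5 and 6, SPDEF was -0.21 in DoxyNaB against Doxy and MUC1 was 0.017 in DoxyNaB against NaB. Without the Doxy array of experiment 6, TFF1 was -0.36 in Doxy against Ctl and its interaction -0.076. Leaving out each experiment in turn, the changes that turned sign ranged for MUC1 from -0.59 to 0.14 (NaB against Ctl), -0.54 to 0.28 (DoxyNaB against Doxy), -0.43 to 0.34 (DoxyNaB against NaB) and -0.62 to 0.26 (interaction), for SPDEF from -0.014 to 0.52 (DoxyNaB against Doxy) and -0.45 to 0.070 (DoxyNaB against NaB), for TFF1 from -0.27 to 0.36 (Doxy against Ctl) and for the MUC2 interaction from -0.22 to 0.34. Of the member changes under the alternatives, 390 kept their sign and their side of the threshold, 51 turned sign, 17 lost and 8 gained an adjusted p under 0.01. Among all genes called in NaB against Ctl, 64.7% were higher, against 53.7% with normexp, 45.9% with quantile normalization and 21.5% with median scaling.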
